A study of Mus musculus with 6 samples.

Results

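The cells described here were the microglia that the authors' deposited cell table assigned to cluster 2, that is, cells with the deposited type Microglia and the deposited cluster number 2. They numbered 930 of 2721 microglia and of 3005 cells in all, and they held 4087946 unique molecular identifiers (UMIs, each counting 1 captured transcript). Their gene counts were read from the deposited raw matrices and set beside those of microglia of the other deposited clusters in the same library, 905 cells in cluster 1, 395 in cluster 3, 39 in cluster 4, 217 in cluster 5 and 235 in cluster 6.

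The study profiled single CD45+ live cells sorted from the hippocampus of BC57BL/6 mice after a learned helplessness procedure, with 1 library per group. Shocked mice were given inescapable footshocks, 180 in number at 0.3 mA, and their escape was then tested over 30 trials of 24 s. The 6 libraries came from mice that were not shocked (non-shocked), from mice without or with learned helplessness in the acute paradigm (acute non-helpless, acute helpless), and from the chronic paradigm with weekly retests over 3 weeks, where mice were not helpless (chronic non-helpless), stayed helpless (chronic non-recovered) or were helpless and ceased to be (recovered). Meninges and choroid plexus were kept out of the dissected tissue, and cells were collected from a Percoll gradient before the sort. Neither the mice's age nor how many were pooled per library is given in the sources used here. By the deposited batch numbers, batch 1 was the acute helpless library alone, batch 2 held the acute non-helpless library with some non-shocked cells, and batch 3 held the chronic libraries with the remaining non-shocked cells. With 1 library per group no difference between groups has a replicate check, and no p-value is given. Intervals are exact, at 95%, and cover counting error only.

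Microglia are the resident macrophages of brain tissue. They depend on signalling through the Csf1r receptor and in the undisturbed brain express a set of genes that sets them apart from blood-derived macrophages, among them the purinergic receptor P2ry12, the membrane protein Tmem119 and the fractalkine receptor Cx3cr1. In disease models and ageing, some microglia lower these genes and raise lipid-handling and lysosomal genes such as Apoe, Lpl and Cd63, a state known as disease-associated microglia, while others take on interferon-induced genes, chemokines or MHC class II.

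Cluster 2 was present in 4 of the 6 libraries. Whether the cluster numbers were computed over all libraries together was not stated, so number 2 may not mark the same population in each library, and this bears on each comparison between libraries. It held 150 of 569 microglia in the acute non-helpless library (26.4%, interval 22.8 to 30.2%), 226 of 630 in the acute helpless library (35.9%, 32.1 to 39.8%), 228 of 499 in the chronic non-helpless library (45.7%, 41.3 to 50.2%) and 326 of 372 in the recovered library (87.6%, 83.9 to 90.8%). It held 0 of 552 microglia in the non-shocked library, which allows a share of up to 0.543% (taken as 3 counts of the total, not the exact interval), and 0 of 99 microglia of the non-recovered library, which allows up to 3.03%. Both libraries without cluster 2 had cluster 1 and cluster 6 microglia instead. In the non-recovered library all microglia lay in clusters 1 and 6, with 41 and 58 cells. The recovered library lacked clusters 1, 3 and 5 and its other 46 microglia were all in cluster 6. In the non-shocked library 122 of the 123 microglia of batch 2 lay in cluster 6, while those of batch 3 lay in clusters 1, 3, 4 and 6 with 244, 138, 38 and 9 cells. Batch and group cannot be told apart for the acute helpless library, the only one in batch 1. Within batch 3, which held 4 of the groups, the share ran from 0 of 429 non-shocked microglia to the 87.6% of the recovered library.

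**Figure D1:**
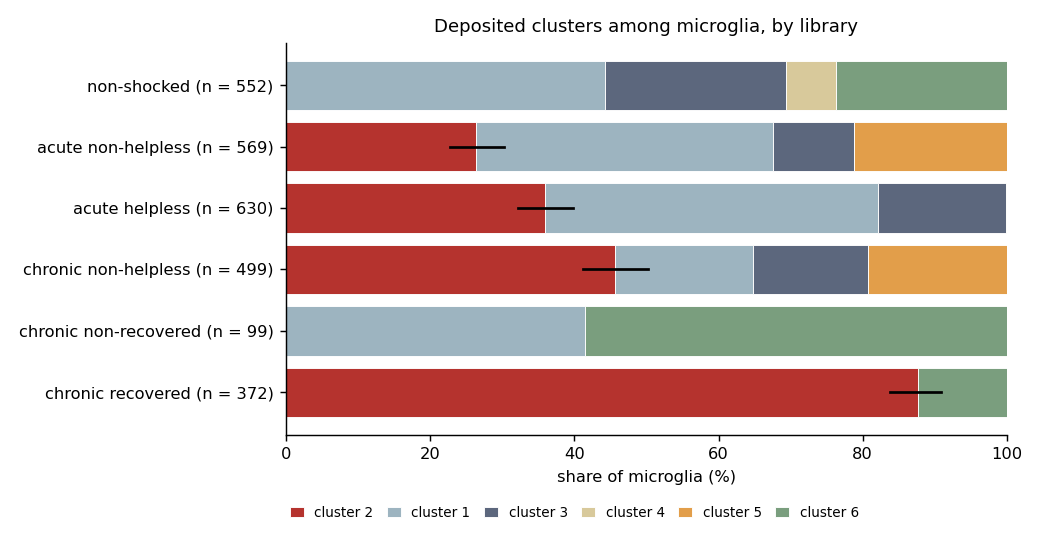
Share of the microglia of each library, in percent, that the deposited table placed in each cluster; each bar is 1 library with its number of microglia, and the black line is the exact 95% interval of the cluster 2 share. Cluster 2 runs from 0% in the non-shocked and chronic non-recovered libraries to 87.6% in the recovered library.

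Cluster numbers did not map one to one onto position in the deposited t-SNE coordinates, the 2-dimensional layout of all cells. For the cluster 2 cells of the recovered library, the nearest microglial cell of the chronic non-helpless library carried number 2 in 53.1% of cases, number 5 in 23.3%, number 1 in 22.7% and number 3 in 0.920%. For the chronic non-helpless library's own cluster 2 cells, the nearest other microglial cell of that library carried number 2 in 77.6%, number 5 in 13.2% and number 1 in 9.21%. The cluster 2 cells of the acute helpless library fell nearest to acute non-helpless microglia numbered 2 in 40.7%, 5 in 35.0% and 1 in 24.3%, where the values within the acute non-helpless library were 46.7%, 19.3% and 33.3%. Among all chronic non-helpless microglia numbers 2, 5, 1 and 3 made up 45.7, 19.2, 19.0 and 16.0%. In the acute non-helpless library they made up 26.4, 21.3, 41.1 and 11.2%. Number 3 was thus nearest far less often than its share. For the recovered cells numbers 2, 5 and 1 lay close to their shares, so they say little about which of these clusters cluster 2 borders. These values describe the layout and not expression.

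The cell type label held in all 4 libraries. All 12 microglial markers were detected and together made up 51237 to 62623 CPM (UMIs of a gene scaled to 1000000 UMIs of the group) in cluster 2. Defining markers of other cells were absent or near absent. Cd163, Pf4, Lyve1, Ms4a7 and Cd209f, which mark macrophages of the brain's borders, were at 0 in all 4 libraries and that whole list summed to 4.31 to 26.9 CPM. The summed monocyte, T cell and neuron lists reached at most 5.54, 7.01 and 5.26 CPM, the NK cell list 20.9 CPM, the endothelial list 38.8 CPM, and the erythrocyte list was at 0. Higher sums came mostly from single genes. Csf3r gave 94.8 to 100% of the neutrophil list (160 to 275 CPM), Slc1a3 90.6 to 100% of the astrocyte list (196 to 218 CPM) and Ighm 71.5 to 84.6% of the B cell list (304 to 320 CPM), with the B cell gene Ms4a1 at 0. The oligodendrocyte list summed to 117 to 144 CPM, led by Cnp. A doublet caller marked 20 of the 930 cells, 18 of them in the recovered library. The deposited cluster number 2 also covered 33 cells of other deposited types (29 in the recovered library, of which 24 were T cells), and these are not included.

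The most abundant resting microglial genes were high in cluster 2 and mostly close to level across its libraries. They were high in cluster 1 too, against which the homeostatic list had a median log2 ratio of −0.03 with 0 of 35 members past 1.5-fold in every library. Cst3, which encodes the secreted protease inhibitor cystatin C, was the most abundant transcript in each library, at 62974 CPM in the acute non-helpless, 66783 in the acute helpless, 59427 in the chronic non-helpless and 59610 in the recovered library. The complement subunit C1qa stood at 10217, 11631, 9240 and 9200 CPM in the same order. These genes varied little between the 4 libraries. P2ry12 stood at 6721, 6184, 8372 and 7691 CPM, Tmem119 at 3140, 3529, 3451 and 3314 CPM, and Cx3cr1 at 4670, 4161, 5526 and 5270 CPM. In cluster 1 of the 3 libraries that held both, P2ry12 stood at 6427, 6821 and 8338 CPM. Csf1r, the receptor on which microglial survival depends, was the exception among the 20 most abundant genes: 4810 and 3317 CPM in the acute non-helpless and acute helpless libraries against 7787 and 7236 CPM in the chronic non-helpless and recovered libraries, a 2.35-fold range, whereas the other 19 ranged by no more than 1.35-fold. Cluster 1 cells of the same libraries split the same way for Csf1r, with 4501 and 3496 CPM in the acute and 7506 CPM in the chronic non-helpless library, so the difference lay between libraries in both clusters. Less abundant homeostatic genes differed too. In cluster 2 of the acute helpless library 2 of 35 were at least 1.5-fold higher than in the acute non-helpless library and 4 lower. Itgb5 stood at 1247 and 540 CPM, Crybb1 at 565 and 331 CPM and Mertk at 274 and 463 CPM in that order. Cluster 1 differed in the same directions, with Itgb5 at 1314 and 564 CPM, Crybb1 at 541 and 289 CPM and Mertk at 377 and 491 CPM. Between the recovered and chronic non-helpless libraries 0 of 35 were higher and 0 lower.

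Cells of cluster 2 were deep and rich in ribosomal protein transcripts, as were those of clusters 1 and 5. Their median depth was 3609.5, 3808.5, 4545.5 and 4766 UMIs per cell in the 4 libraries, in the order used above, with single cells from 520 to 18931. Cluster 1 cells were somewhat deeper, with medians of 4500.5, 4881 and 5471 UMIs in the 3 libraries that held them, and cluster 3 cells far shallower, with 1573, 1536.5 and 1988 UMIs. The median share of UMIs in ribosomal protein genes was 7.12, 7.49, 5.72 and 5.66% in cluster 2, against 6.41, 6.00 and 5.03% in cluster 1 and 1.31, 0.946 and 0.841% in cluster 3. Cluster 6 of the recovered library resembled cluster 3, with 2072.5 UMIs and 1.19%. Cells with under 2.5% ribosomal protein UMIs made up 3 of 150, 1 of 226, 5 of 228 and 3 of 326 cluster 2 cells, but 76.6, 84.8 and 90.0% of cluster 3 and 69.6% of the recovered library's cluster 6. Thinned to 1000 UMIs per cell, which left out 1, 0, 1 and 2 shallower cells of cluster 2, its cells had a median of 652, 642.5, 664 and 665 genes, fewer than the 722.5, 700 and 731 of cluster 3. Clusters 3 and 6 therefore differ from cluster 2 in depth and ribosomal content, which lie beside every gene difference from them given here, and their part in those differences was not tested.

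**Figure D2:**
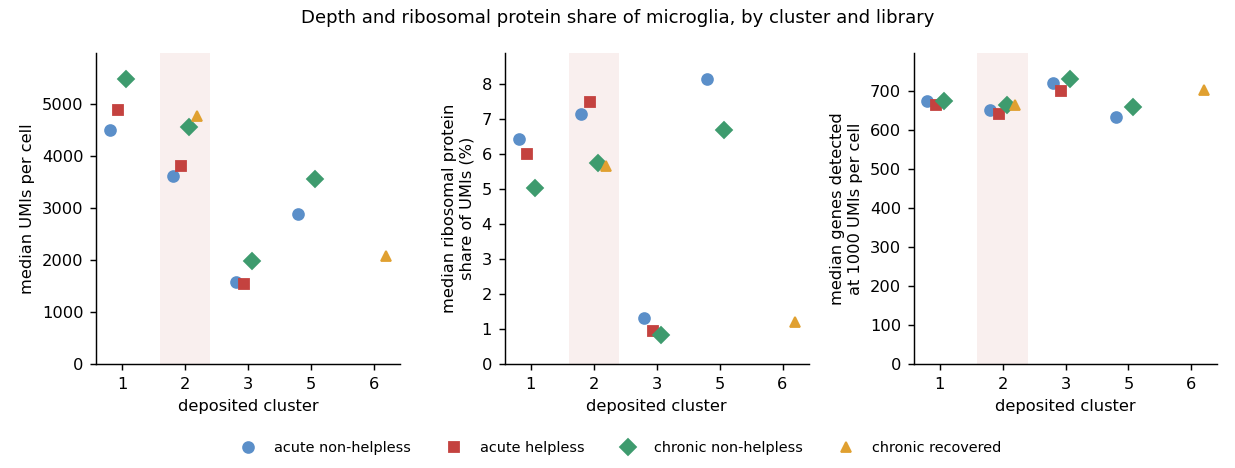
Median UMIs per cell, median percent of UMIs in ribosomal protein genes and median number of genes per cell after thinning to 1000 UMIs, for the microglia of each deposited cluster, with 1 point per library. Cluster 2 lies with clusters 1 and 5 in depth and ribosomal share, and apart from clusters 3 and 6.

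Against all other microglia of the same library, no gene was at least 1.5-fold higher in cluster 2 in each of the 4 libraries (0 of 7943 genes, 0%), and 55 were at least 1.5-fold lower (0.692%). These counts, like all those between clusters, describe groups that the authors' clustering formed from the same expression values and are no test. Over all genes the median log2 ratio was −0.15. Members of the oxidative phosphorylation list, nuclear genes of the respiratory chain, lay above it with a median of 0.24, while long or nuclear-retained transcripts (−0.53), interferon-induced genes (−0.54) and lipid genes (−0.49) lay below. The interferon median rested on the recovered library: by library it was −0.01, −0.05, −0.26 and −1.80, where all genes had −0.09, −0.14, −0.10 and −0.03, so in both acute libraries it lay above that of all genes. The recovered library, whose other microglia were 46 cluster 6 cells, lay furthest out in the other lists too. In the same order oxidative phosphorylation had 0.04, 0.14, 0.14 and 0.52, long transcripts −0.26, −0.43, −0.40 and −0.99, and lipid genes −0.19, −0.26, −0.25 and −0.88. A gene could pass the 20 CPM filter through the small sum of those cells alone. Mcm7, a subunit of the replicative helicase, was the only member of any list at least 1.5-fold lower in every library, with none higher. Uqcrb, a subunit of respiratory complex III, stood at 247, 200, 195 and 171 CPM in the 4 libraries, in that same order, against 174, 161, 151 and 78.3 CPM in the other microglia. The log2 ratio was thus 0.50, 0.32, 0.37 and 1.13, higher in 4 of 4 libraries but short of the limit in 3. Htt, which encodes huntingtin, stood at 8.76, 12.9, 20.2 and 32.6 CPM against 25.3, 25.3, 42.1 and 78.3 CPM, lower in all 4 by 0.97 or more on the log2 scale. Uqcrb and Htt were named by their ratio in every library, so their agreement in direction follows from that choice. The other microglia were a different mixture of clusters in each library, so each cluster was then taken alone.

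**Figure D3:**
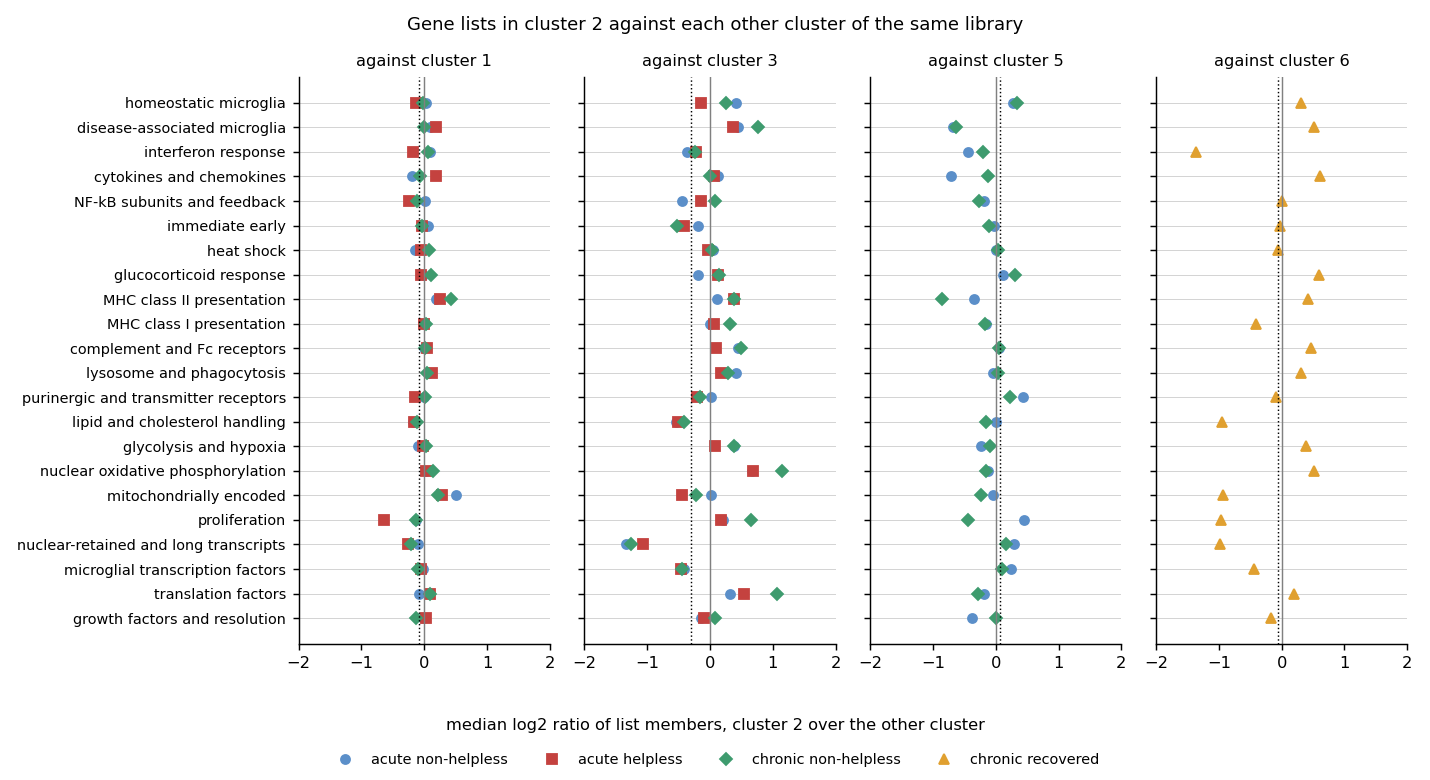
Median log2 ratio of cluster 2 over cluster 1, 3, 5 or 6 of the same library for 22 gene lists, with 1 point per library; the dotted line is the median over all genes tested. List medians against cluster 1, averaged over libraries, lie between −0.24 and 0.32, those against clusters 3 and 6 separate long transcripts from nuclear respiratory chain genes, and disease-associated genes lie below it against cluster 5.

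Cluster 2 differed little from cluster 1, the other large group of deep cells. Of 7401 genes, 3 were at least 1.5-fold higher in all 3 shared libraries (0.0405%) and 31 lower (0.419%), and no member of a gene list passed the limit in all 3. The 3 higher genes were 2310022A10Rik, Nbea, a neurobeachin involved in membrane traffic, with log2 ratios of 1.43, 1.02 and 0.68, and Mrps27, a mitochondrial ribosome subunit, with 0.72, 0.62 and 1.21, in the order acute non-helpless, acute helpless and chronic non-helpless here and against cluster 3. Against a median of −0.08 over all genes, the list medians highest in cluster 2 were those of mitochondrially encoded genes (0.32), MHC class II genes (0.30) and ribosomal protein genes (0.21), and long transcripts were at −0.20. Cd74, H2-Aa, H2-Ab1 and H2-Eb1 together had 14 UMIs in acute non-helpless cluster 2, and 1 cell held 498 of 544 in the acute helpless library. Cluster 2 cells were shallower than cluster 1 cells. Their median mitochondrial share was 1.62, 1.38 and 1.06% against 1.12, 1.10 and 0.840%. The part of depth and this share was not tested. Single genes with small shifts are given as descriptions. H2-D1, an MHC class I heavy chain, stood at 468, 575 and 455 CPM in cluster 2 against 404, 451 and 344 CPM in cluster 1, and Cyba, a subunit of the phagocyte NADPH oxidase, at 1249, 1384 and 1068 against 1118, 1135 and 919 CPM. The transcription factor genes Mef2a and Maf were lower: Mef2a stood at 265, 362 and 343 CPM against 341, 462 and 441 CPM, and Maf at 407, 354 and 412 against 512, 441 and 579 CPM. Itpr2, a calcium release channel of the endoplasmic reticulum, was at 112, 92.5 and 150 CPM against 153, 125 and 206 CPM, log2 ratios of −0.45, −0.43 and −0.46. Each of these genes stayed under 1.5-fold. They were named by their ratio in every library, so moving one way in 3 of 3 libraries follows from that choice and is no result.

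Against cluster 3 the difference was wide. Of 8071 genes, 245 were at least 1.5-fold higher in cluster 2 in all 3 shared libraries (3.04%) and 1354 lower (16.8%), with a median log2 ratio of −0.31 over all genes. Ribosomal protein genes (median 1.09, 35 of 83 higher), nuclear respiratory chain genes (0.84, 16 of 50 higher) and translation factors (0.67, 5 of 28 higher) lay above that median. Long or nuclear-retained transcripts lay below it, at −1.28 with 23 of 29 lower. Malat1, an abundant RNA retained in the nucleus, stood at 9982, 8277 and 9389 CPM in cluster 2 of the 3 libraries and at 34731, 18380 and 34908 CPM in cluster 3. Macf1, a very long cytoskeletal linker gene, was at 217, 173 and 305 CPM against 891, 438 and 976 CPM, and Ank2, which encodes the adaptor ankyrin 2, at 35.0, 21.1 and 40.4 against 201, 120 and 244 CPM. Cluster 2 lay below cluster 3 in every one of these pairs, with log2 ratios of −2.52, −2.51 and −2.59 for Ank2. In the other direction Uqcrb stood at 247, 200 and 195 CPM against 64.9, 78.9 and 81.3 CPM, and Npm1, which encodes the nucleolar protein nucleophosmin, at 315, 253 and 251 against 159, 133 and 107 CPM.

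The microglial lists moved less than these against cluster 3. The MHC class II list came near the translation factors, with a median of 0.61 and 0 of 10 members past the limit in every library. By library its median was 0.11, 0.39 and 0.38. The lysosome and complement lists were at 0.35 and 0.34. Homeostatic genes had a median of 0.17, with Crybb1 and Rgs10 higher among 35 members and Mertk, Mef2c and Tgfbr1 lower. Mertk, a receptor for engulfing dying cells, stood at 463, 274 and 536 CPM in cluster 2 against 855, 579 and 1245 CPM. Microglial transcription factors were at −0.46, with 6 of 22 lower, among them Mef2a at 265, 362 and 343 against 885, 748 and 691 CPM. Lipid genes were at −0.42 with 5 of 20 lower. The disease-associated list was at 0.42, and its 3 of 21 members past the limit were Fth1, Tyrobp and B2m, short transcripts abundant in all microglia. Fth1, the ferritin heavy chain that stores iron, stood at 2543, 2844 and 2252 CPM against 1351, 1333 and 569 CPM. Tyrobp, the signalling adaptor of the Trem2 receptor, stood at 2893, 3317 and 2572 CPM against 1298, 1926 and 813 CPM.

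**Figure D4:**
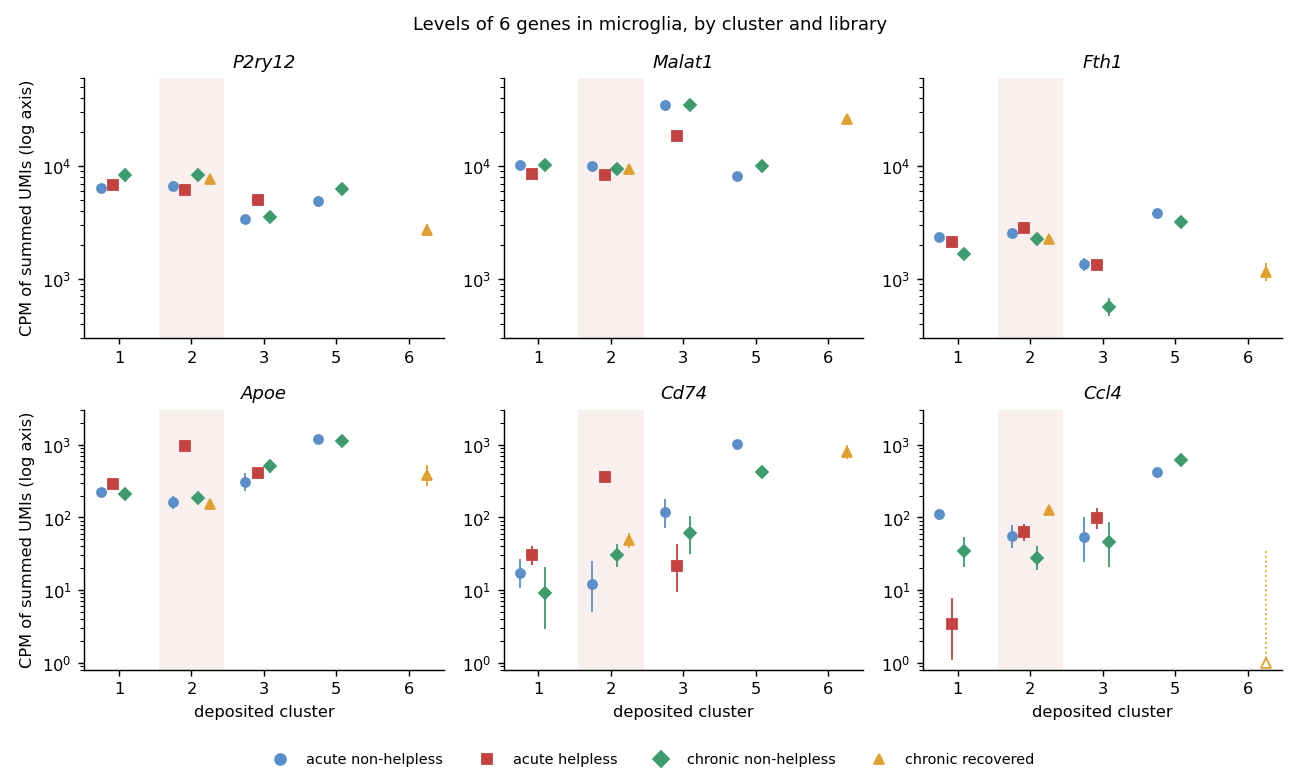
CPM on a log axis of P2ry12, Malat1, Fth1, Apoe, Cd74 and Ccl4 in the microglia of each deposited cluster and library, with exact 95% intervals; an open symbol marks 0 UMIs with a dotted line to the upper limit. P2ry12 is close to level across libraries in cluster 2, Malat1 is highest in clusters 3 and 6, and Apoe in cluster 2 is highest in the acute helpless library.

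Cluster 5, present beside cluster 2 in the acute non-helpless and chronic non-helpless libraries, had higher sums of activation genes. Of 7088 genes, 217 were at least 1.5-fold higher in cluster 2 in both (3.06%) and 165 lower (2.33%). Among the lower were 11 of 23 disease-associated genes (list median −0.57 against 0.06 for all genes), 4 of 10 MHC class II genes and 4 of 11 cytokine and chemokine genes. Apoe, the main lipid carrier of the brain, stood at 161 CPM in cluster 2 and 1202 in cluster 5 of the acute non-helpless library and at 187 and 1145 CPM in the chronic non-helpless library, 7.45- and 6.13-fold lower. Lpl, which releases fatty acids from lipoproteins, was at 22.8 against 170 CPM and 26.0 against 253 CPM. The tetraspanin Cd63 was at 321 against 679 and 289 against 754 CPM. Cluster 2 was low for all 3 genes in both libraries. The chemokine Ccl4 stood at 56.1 against 418 and 27.9 against 612 CPM, Ccl3 at 29.8 against 226 and 15.4 against 338 CPM, and Cd74, the MHC class II invariant chain, at 12.3 against 1043 and 30.8 against 428 CPM.

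These sums in cluster 5 were carried by few cells. In the acute non-helpless and chronic non-helpless libraries, 18 of 121 and 12 of 96 cluster 5 cells had at least 5 Apoe UMIs and held 89.9 and 85.8% of its Apoe. For Ccl3 with Ccl4, 2 and 4 cells held 84.9 and 92.9%, and for the MHC class II genes with Cd74, 7 and 6 cells held 96.8 and 91.0%. P2ry12 stood at 1586 and 628 CPM in the MHC class II cells, 1459 and 1954 in the chemokine cells and 2639 and 4352 in the Apoe cells. In cluster 2 of these libraries it stood at 6721 and 8372 CPM. The border macrophage list summed to 303 and 0 CPM in the MHC class II cells and 147 and 657 CPM in the Apoe cells. Whether all these cells were microglia was not tested. The homeostatic list had a median of 0.32, and 2 of its 35 members were among the 217 genes higher in cluster 2. Slc2a5, a fructose transporter, stood at 354 against 221 CPM in the acute non-helpless and 434 against 239 CPM in the chronic non-helpless library, and Adgrg1, an adhesion receptor, at 424 against 259 and 544 against 361 CPM. Upk1b, a tetraspanin of the uroplakin family, was at 121 against 56.6 and 115 against 43.7 CPM. Ribosomal protein genes were lower in cluster 2 than in cluster 5, with a median of −0.42.

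In the recovered library the only other microglia were the 46 cells of cluster 6, with 102218 UMIs. Of 6773 genes, 959 were at least 1.5-fold higher in cluster 2 (14.2%) and 2020 lower (29.8%), with a median of −0.07, and these counts rest on the small cluster 6 sum. Interferon-induced genes had a median of −1.36 with 12 of 13 lower, mitochondrially encoded genes −0.94 with 11 of 13 lower, long transcripts −0.99 with 21 of 29 lower and lipid genes −0.95 with 10 of 18 lower. A gene of few UMIs could pass the 20 CPM filter through the cluster 6 side alone. The filter can thus favour genes higher in cluster 6, and these counts are descriptions. The peptide transporter Tap1 stood at 46.8 CPM in cluster 2 and 157 in cluster 6, and the chemokine Ccl12 at 81.3 and 313 CPM. Resting and abundant microglial genes were higher in cluster 2: P2ry12 stood at 7691 against 2720 CPM, Cst3 at 59610 against 22599 CPM, and Rgs10, a brake on G protein signalling, at 1490 against 372 CPM. Homeostatic genes numbered 11 higher and 5 lower of 35. Single cells carried other differences. All 62 Cd24a UMIs of cluster 6, against 0 in cluster 2, came from 1 cell. Of its 117 UMIs of MHC class II genes with Cd74, 97 came from 1 cell without P2ry12 or Tmem119 UMIs.

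Cluster 2 of the acute helpless library was then set beside that of the acute non-helpless library. The 2 libraries are of different batches, so batch and helplessness cannot be told apart. Of 3630 genes, 390 were at least 1.5-fold higher in the acute helpless library (10.7%) and 426 lower (11.7%). The stress-related differences named next were found in cluster 1 of these libraries too. Fkbp5, a co-chaperone induced by glucocorticoids, stood at 255 CPM in the acute helpless and 31.5 in the acute non-helpless library in cluster 2, and at 254 and 31.1 CPM in cluster 1. Ddit4, an inhibitor of mTORC1 signalling that stress and glucocorticoids induce, stood at 1208 and 393 CPM in cluster 2 and 1156 and 360 CPM in cluster 1. Fos, an immediate early transcription factor gene, was at 86.6 and 396 CPM in cluster 2 and 89.8 and 320 CPM in cluster 1, and the heat shock gene Hspa1a at 28.1 and 284 against 29.7 and 260 CPM. In all 4 genes both clusters moved together. The glucocorticoid list had a median of 0.48 in cluster 2 (5 of 12 higher, 2 lower) and 0.51 in cluster 1, the immediate early list −0.62 (1 of 18 higher, 10 lower) and −0.59, the heat shock list −0.34 (1 of 22 higher, 6 lower) and −0.28, and the lysosome list 0.25 (10 of 39 higher, 2 lower) and 0.17, where all genes of cluster 2 had a median of −0.04.

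Several of the widest differences separated whole libraries. Lamp1, a lysosomal membrane protein gene, stood at 1591 and 207 CPM in cluster 2 of the acute helpless and acute non-helpless libraries and at 1370 and 208 CPM in cluster 1. Cebpb, a transcription factor gene of inflammatory responses, stood at 556 and 40.3 CPM in cluster 2 and 512 and 40.7 CPM in cluster 1. Qpct, an enzyme that modifies the N-termini of chemokines, went the other way, at 5.85 and 492 CPM in cluster 2 and 5.40 and 448 CPM in cluster 1. Dlgap1, a scaffold gene of synapses, had 0 UMIs in the acute helpless and 98 in the acute non-helpless cluster 2. Lamp1 was also high in cluster 1 of the non-shocked and chronic non-recovered libraries, at 1287 and 1106 CPM, so its levels differed by library in both clusters.

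**Figure D5:**
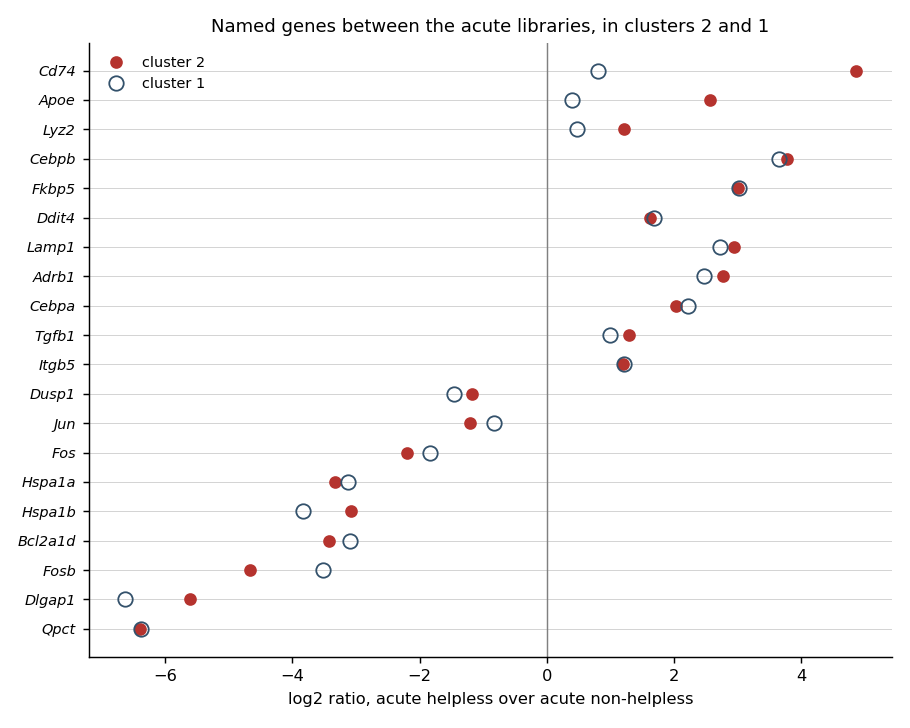
Log2 ratio of the acute helpless over the acute non-helpless library for 20 named genes, in cluster 2 (filled) and cluster 1 (open); Dlgap1, with 0 UMIs in the acute helpless library, is drawn at the floor of 3 counts. Fkbp5, Ddit4, Lamp1, Cebpb and Qpct have near-equal ratios in both clusters, while Cd74 and Apoe are further from 0 in cluster 2.

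Apoe differed more between the acute libraries in cluster 2 than in cluster 1, a difference that has no replicate and was not tested. In cluster 2 it stood at 959 CPM in the acute helpless and 161 in the acute non-helpless library, 5.95-fold higher (4.79 to 7.46), and at 187 and 154 CPM in the chronic non-helpless and recovered libraries. In cluster 1 it stood at 293 and 222 CPM in the acute pair. The acute non-helpless library also held 121 cluster 5 cells at 1202 CPM, while the acute helpless library had no cluster 5 cells. Over all microglia outside cluster 2 the log2 ratio of the acute helpless over the acute non-helpless library was −0.51, the opposite direction. The acute helpless library alone was high in cluster 2, while the other 3 lay between 154 and 187 CPM. Cells with at least 5 Apoe UMIs numbered 37 of 226 in the acute helpless library (16.4%, 11.8 to 21.9%) and 5 of 150 in the acute non-helpless library (3.33%), and the 37 cells held 85.2% of the acute helpless Apoe. With cells thinned to 1000 UMIs, 61 of 226 acute helpless cluster 2 cells had an Apoe UMI (a share of 21.3 to 33.3%), and 12 of 149 of the acute non-helpless ones (4.23 to 13.6%). T cells, which should lack the transcript, had one in 6 of 30 cells (20.0%, 7.71 to 38.6%) of the acute helpless library and 1 of 9 (11.1%, 0.281 to 48.2%) of the acute non-helpless library after the same thinning, at median depths of 9171 and 14564 UMIs before it. In neither library was the share of cells with a UMI in cluster 2 separated from that of T cells, which were few. The thinned level, 929 CPM in cluster 2 and 333 CPM in T cells of the acute helpless library, was higher in cluster 2. Within cluster 2 Lyz2, the lysozyme gene of myeloid cells, ran the same way as Apoe, at 349 and 151 CPM in cluster 2 and 163 and 117 CPM in cluster 1. Cluster 5 of the acute non-helpless library stood at 525 CPM, and outside cluster 2 as a whole the log2 ratio of Lyz2 was −0.28.

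In the acute helpless library, MHC class II in cluster 2 rested on single cells. Cd74 had 305 UMIs in the acute helpless and 7 in the acute non-helpless library, H2-Aa 83 and 1, H2-Ab1 83 and 5, and H2-Eb1 73 and 1. One acute helpless cell held 498 of the 544 UMIs of these 4 genes there, and with it 39 UMIs of P2ry12 and 28 of Tmem119 in a total of 7174. A second cell held 11. Outside cluster 2 the log2 ratio of Cd74 was −3.14, with 1043 CPM in cluster 5 of the acute non-helpless library. Without both, and without called doublets, Cd74 was at 27.3 CPM against 12.4 CPM. Cells with at least 5 such UMIs numbered 0 of 150 in the acute non-helpless, 2 of 226 in the acute helpless, 1 of 228 in the chronic non-helpless and 4 of 326 in the recovered library. They held 93.6% of these UMIs in the acute helpless, 37.7% in the chronic non-helpless and 49.0% in the recovered library. The H2-Aa and H2-Eb1 genes sit close together on chromosome 17, and the 250 bases before the start of each are shown because nearly all their UMIs in cluster 2 of the acute helpless library (82 of 83 and 71 of 73) came from that first cell. The promoters of H2-Ab1 and Cd74, whose UMIs lay in the same cell, were not used here. The sequences come from RefSeq on build GRCm38.p6, at chr17:34287824-34288073 on the minus strand for H2-Aa and chr17:34305617-34305866 on the plus strand for H2-Eb1, with capitals marking CTGATTGG, the core of the Y box that the class II promoters share.
H2-Aa: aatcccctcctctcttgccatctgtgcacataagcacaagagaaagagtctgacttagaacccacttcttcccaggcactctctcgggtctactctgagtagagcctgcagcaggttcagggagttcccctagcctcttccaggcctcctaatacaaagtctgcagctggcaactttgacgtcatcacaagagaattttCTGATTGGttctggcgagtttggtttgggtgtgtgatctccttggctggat
H2-Eb1: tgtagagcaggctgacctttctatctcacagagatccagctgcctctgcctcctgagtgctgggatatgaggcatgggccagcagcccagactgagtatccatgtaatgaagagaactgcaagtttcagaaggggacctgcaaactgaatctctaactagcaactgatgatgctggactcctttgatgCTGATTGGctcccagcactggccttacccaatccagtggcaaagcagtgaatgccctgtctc
The motif lies 51 bases before the start of H2-Aa and 62 before that of H2-Eb1. The same letters, on either strand, are found in 1258 of 32851 promoters of that length (3.83%).

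Cluster 2 of the recovered library resembled that of the chronic non-helpless library, of the same batch. Of 3734 genes, 136 were at least 1.5-fold higher in the recovered library (3.64%) and 42 lower (1.12%), the median gene differed by 1.10-fold in either direction, and list medians lay between −0.13 and 0.10. Fkbp5 had 31 UMIs in the recovered and 26 in the chronic non-helpless library, too few to be among the genes tested, Fos at 381 and 400 CPM, and Apoe at 154 and 187 CPM. Of the stress-induced genes that parted the acute libraries, Fos and Hspa1a, the latter at 193 and 191 CPM, were close together here. Hspa1b, too low to be among the genes tested, stood at 37.5 and 19.3 CPM. The immediate early gene Jund was apart, at 230 and 78.0 CPM. Genes that did differ included Cebpa, a myeloid lineage factor, at 239 and 54.9 CPM, Cebpb at 102 and 28.9 CPM, Tgfb1, which encodes the cytokine that maintains microglial identity, at 642 and 249 CPM, and Qpct at 56.0 and 1.93 CPM. On the lower side mt-Atp8, a mitochondrially encoded subunit of ATP synthase, stood at 108 and 271 CPM and Foxp1, a transcription factor gene, at 38.2 and 70.3 CPM. Outside cluster 2 the log2 ratios of mt-Atp8 and Foxp1 were 0.07 and 1.07. Ccl4 was at 125 and 27.9 CPM, but 10 of the 326 recovered cells had at least 5 UMIs of Ccl3 with Ccl4 and held 87.3% of them. In the chronic non-helpless library 2 of 228 cluster 2 cells and 4 of 96 cluster 5 cells were of this kind, with Ccl4 at 612 CPM in cluster 5, which the recovered library lacked, and outside cluster 2 the log2 ratio of Ccl4 was −2.89, the opposite direction. Ttr, the transthyretin gene of choroid plexus epithelium, had 2128 UMIs in the recovered and 0 in the chronic non-helpless library. A single cell held 2122 of these and 86 of the 88 Enpp2 UMIs, and it had 0 UMIs of P2ry12, Tmem119 and Cx3cr1, against its label.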

How the data were processed

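Sorted cells of 6 libraries were sequenced with a 5′ droplet method for single cells. The authors deposited, per library, a raw matrix of UMI counts per gene and cell and a cell table with type, cluster, batch and t-SNE coordinates (a unitless score), per the file headers. Cell Ranger 2.2.0, Seurat 2.3.4 and build mm10 are named in the submitters' processing notes. The sources used here do not give how clusters were computed or whether doublets were removed before deposit. UMI totals recomputed from the matrices equalled the deposited totals in all 3005 cells, and any pair of libraries shared at most 1 barcode (5 in all), none of them between cluster 2 cells.

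UMIs were summed per library and cluster and scaled to CPM. Ratios raised a lower side of 0 to 2 counts to 3. Genes tested had 20 CPM on the higher side in at least 1 library and 30 UMIs in all; between libraries 50 CPM. A gene was called at 1.5-fold. A cluster was used in a library from 20 cells up. Genes named within libraries were the 12 with the highest smallest and the 12 with the lowest largest ratio, between libraries the 6 at each end, plus up to 4 members of each of 22 gene lists past the fold; a minimum of 100 CPM for naming against single clusters, and the genes of single cells that stand out, were chosen after values were seen. Abundant and marker genes, and genes followed across comparisons, are given as descriptions. The cells, the gene lists, the 12 marker lists and the rule were chosen with earlier results of these data known. Doublets were called with Scrublet in scanpy 1.11.5 and kept in, leaving them out being an alternative. Ratio intervals are conditional exact, shares Clopper-Pearson. Python 3.11.15, numpy 2.4.6, scipy 1.17.1 and pandas 2.3.3 were used. The scripts were tested on simulated data.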

Additional observations from a re-analysis of the deposited data

How the results depend on the processing

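No paired analysis was possible because each group is 1 library, numbered replicate 1 in each, so the groups share fewer than 2 numbers. The cluster 2 shares moved by less than their intervals with cells of at least 1000 UMIs, with under 5% mitochondrial UMIs, or without doublets. The count of genes lower in cluster 2 than all other microglia in every library, 55, was 27 with median-of-ratios size factors, 241 with each cell weighted equally, 99 with cells thinned to 1000 UMIs, 29 with a 50 CPM filter and 2 at 2-fold; leaving out 1 library gave 85 to 192 (85 without the recovered, 192 without the acute non-helpless library). The count of higher genes, 0, was 1 when thinned and 0 to 4 leaving out 1 library, 4 being without the recovered library. Gene lists at least 0.2 (log2) from the median of all genes numbered 9, and 5 to 14 leaving out 1 library, 5 without the recovered and 14 without the acute non-helpless. Against clusters 1, 3, 5 and 6 alone, an alternative chosen after seeing the data, higher genes numbered 3, 245, 217 and 959, lower genes 31, 1354, 165 and 2020, and lists apart 4, 15, 14 and 17. Between the acute libraries, thinning gave 196 higher and 107 lower genes in place of 390 and 426, with fewer UMIs behind each gene. Between the recovered and chronic non-helpless libraries, 0 lists were apart, 1 with each cell weighted equally, 2 when thinned, 1 with totals without mitochondrial and ribosomal protein genes, and 1 without doublets and cells bearing Ttr or MHC class II genes, the last chosen after seeing the data. Of 396 list medians under the alternatives, 334 stayed within 1 SD of the libraries and 62 moved further, and no result named here reversed. The interferon median, however, rested on the recovered library and lay above that of all genes in both acute libraries. Other causes were not tested. Depth limits genes of few UMIs, above all against the 46 cells of cluster 6.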
